A study of Homo sapiens with 13 samples.

Results

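The genes studied here were 10 genes of the transforming growth factor beta (TGF-beta) pathway, taken by name from GENCODE release 44 mapped to hg19, out of 19894 protein-coding genes with a canonical transcription start site (TSS). They comprised the ligand genes TGFB1, TGFB2 and INHBA, the matrix gene LTBP2, the receptor genes TGFBR1 and TGFBR2, and the SMAD genes SMAD2, SMAD3, SMAD4 and SMAD7. They were listed by name, with earlier results of these data known, and no measured value entered the rule. Chromatin immunoprecipitation and sequencing (ChIP-seq) had been carried out in MDA-MB-231, an established human line from a triple-negative basal B breast cancer, grown under standard conditions in medium with serum. The antibodies recognized H3K4me3, a histone mark of promoters, H3K4me1, a mark of enhancers and promoter flanks, H3K27ac, a mark of active elements, the coactivators p300/CBP, RNA polymerase II (Pol II) and the insulator protein CTCF. There were 2 replicate libraries per antibody and 1 pooled library for p300/CBP, and each antibody is represented by 1 list of peak positions. The lists carry no height or read count, so depth is unknown, no value below has a replicate error, and a missing peak means only that the signal stayed under the calling threshold. A peak also cannot be assigned to a gene or strand by its position alone.

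TGF-beta ligands are secreted as latent complexes that are stored in the matrix and released by integrins and proteases. The freed ligand binds the type II receptor, which phosphorylates the type I receptor, and this kinase in turn phosphorylates SMAD2 and SMAD3. These join SMAD4 and enter the nucleus, where they bind DNA together with other factors such as AP-1, the dimer of Fos and Jun proteins, and recruit p300/CBP. In breast carcinoma the pathway is known for restraining growth early and for favouring invasion later.

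Among the p300/CBP peaks around these genes, 5 are shown first as examples chosen for a short string of letters. That string stood in the 200 bp around the centre of 33.1% of all p300/CBP peaks. The capitals mark TGANTCA, the AP-1 recognition sequence, which is its own reverse complement when N is left free. Positions are hg19, the plus strand is written from 5′ to 3′, and the end given is the first base after the peak. The peak of TGFB2 lay at chr1:218633351-218633601, beyond the 3′ end of the gene, and that of LTBP2 at chr14:75086401-75086601, upstream of the gene. The peak of TGFBR2 lay in intron 3 at chr3:30700851-30701101, that of SMAD3 in intron 1 at chr15:67368601-67368851, and that of SMAD7 upstream at chr18:46524601-46524701. None of the 5 touched an annotated exon.
TGFB2: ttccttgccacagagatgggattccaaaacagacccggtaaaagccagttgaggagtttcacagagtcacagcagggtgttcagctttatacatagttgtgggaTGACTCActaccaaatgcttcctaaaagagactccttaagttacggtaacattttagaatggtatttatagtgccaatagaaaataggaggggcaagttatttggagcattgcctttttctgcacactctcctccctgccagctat
LTBP2: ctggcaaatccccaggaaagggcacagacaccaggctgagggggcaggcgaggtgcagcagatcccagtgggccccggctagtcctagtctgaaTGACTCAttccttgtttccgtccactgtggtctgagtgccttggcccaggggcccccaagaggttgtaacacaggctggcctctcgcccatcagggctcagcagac
TGFBR2: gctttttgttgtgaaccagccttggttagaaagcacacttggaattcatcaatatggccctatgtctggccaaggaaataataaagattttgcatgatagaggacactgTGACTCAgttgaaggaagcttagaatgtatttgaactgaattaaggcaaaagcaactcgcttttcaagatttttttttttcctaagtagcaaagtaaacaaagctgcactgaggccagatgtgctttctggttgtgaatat
SMAD3: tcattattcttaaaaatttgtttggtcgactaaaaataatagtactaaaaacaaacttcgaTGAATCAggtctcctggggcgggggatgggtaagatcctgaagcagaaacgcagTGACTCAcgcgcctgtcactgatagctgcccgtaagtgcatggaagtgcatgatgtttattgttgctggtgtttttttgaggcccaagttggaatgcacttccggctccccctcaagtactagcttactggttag
SMAD7: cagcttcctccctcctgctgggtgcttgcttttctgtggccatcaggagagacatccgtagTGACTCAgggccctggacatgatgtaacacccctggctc

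Promoters were read as windows of 3 kb centred on the canonical TSS, and a shared base counted as overlap. H3K4me3 was found in the windows of 8 of the 10 genes, beside 62.7% of all 19894 windows. H3K27ac was also found in 8, beside 61.4%, and in the same genes, all but INHBA and LTBP2. Pol II was found in 7, beside 58.4%, and H3K4me1 in 6, beside 59.3%. CTCF was found at TGFB1 and SMAD3 only, 2 of 10 beside 17.6%. No window held a p300/CBP peak, which is also true of nearly all genes, since 0.769% of windows held one. With 10 genes, none of these counts stands far from its background share. The TSS base itself lay under H3K4me3 in 6 genes (52.2% of all TSSs), under H3K27ac in 5 (47.6%) and under Pol II in 5 (51.2%). It lay under H3K4me1 in none of the 10 (8.37%), under CTCF in none (4.08%) and under p300/CBP in none (0.131%). In the 6 genes with H3K4me1 the peak thus lay beside the TSS, and the count depended on the window, with 3 of 10 genes in a 2 kb window and 1 in a 1 kb window.

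**Figure D1:**
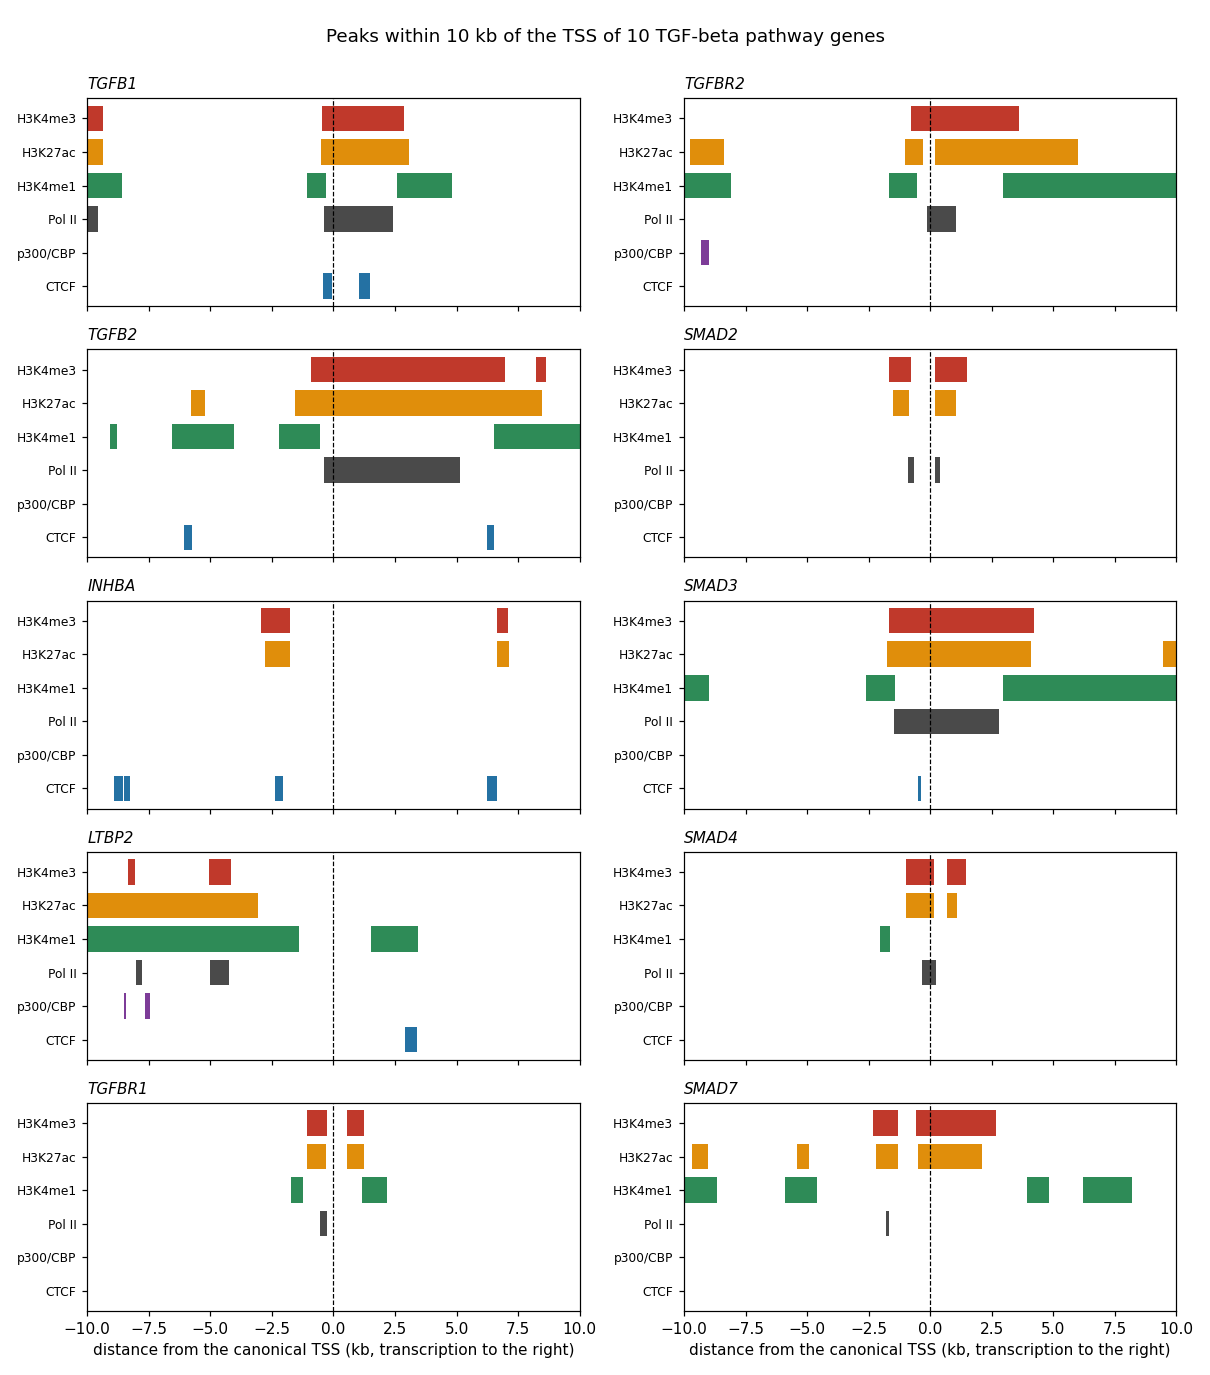
Peaks of the 6 lists around the canonical TSS (dashed line) of each of the 10 genes, against distance from the TSS in kb, with transcription to the right. TGFB2 and SMAD3 show long H3K4me3 and H3K27ac peaks across the TSS, TGFBR1 and SMAD2 a gap over it, and INHBA and LTBP2 no H3K4me3 within 1.5 kb of it.

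TGFB2 had the widest promoter domain of the 10 genes. Its gene lies at chr1:218518678-218617961 on the plus strand and encodes the TGF-beta 2 ligand. The H3K4me3 peak was 7900 bp wide and ran from 927 bp upstream to 6972 bp downstream of the TSS. Among the 12472 windows with H3K4me3, 99.3% had a narrower widest peak, and the median was 2250 bp. H3K27ac covered 10050 bp in 1 peak, wider than in 99.2% of marked windows, and Pol II 5500 bp, wider than in 91.4%. The TSS of the antisense lncRNA TGFB2-AS1 lies 0.7 kb into the gene, inside the same peaks, so the marks of both transcripts cannot be told apart. CTCF peaks stood 5.73 kb upstream and 6.22 kb downstream of the TSS, the second one inside the H3K4me3 peak.

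TGFB1, at chr19:41807492-41859827 on the minus strand, encodes TGF-beta 1. It had H3K4me3 over 3350 bp, H3K27ac over 3600 bp and Pol II over 2800 bp, all 3 across the TSS and wider than in 81.7%, 83.6% and 82.6% of the marked windows of their lists. A 750-bp H3K4me1 peak ended 324 bp before the TSS. A 350-bp CTCF peak ended 74 bp before it, and a 450-bp CTCF peak lay in exon 1, starting 1027 bp after it. The second peak held 1 form of the CTCF core sequence on the minus strand.

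INHBA encodes the inhibin beta A subunit, which pairs with itself to form activin A, and lies at chr7:41706766-41745432 on the minus strand. No list had a peak in the window of its canonical TSS, as in 28% of all windows. Marks were found at another of its 3 TSSs, that of transcript INHBA-205, 2744 bp further upstream. There, a 1200-bp H3K4me3 peak and a 1000-bp H3K27ac peak covered the TSS, and a 300-bp CTCF peak lay within them. A second pair, 450 bp of H3K4me3 and 500 bp of H3K27ac, lay in intron 2, directly next to a 400-bp CTCF peak. No Pol II peak lay anywhere within 100 kb of the gene. The H3K4me3 and H3K27ac of INHBA thus lay beside CTCF in both places and beside Pol II in neither.

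LTBP2 encodes a matrix glycoprotein of the latent TGF-beta binding protein family and lies at chr14:74964886-75079081 on the minus strand. Its promoter window held H3K4me1 only, a state found in 4.29% of windows. That peak was 10550 bp wide, wider than in 98.7% of marked windows, but it ended 1411 bp before the TSS and barely reached into the window. Within it stood 2 p300/CBP peaks, 7.46 to 8.51 kb upstream of the TSS, of which the wider is printed above. A 6950-bp H3K27ac peak, 3.06 to 10.01 kb upstream, covered both of them. The H3K4me1 region was not counted among the enhancers described further on, because it reached into the window. A 900-bp H3K4me3 peak and a 750-bp Pol II peak about 5 kb upstream lay at the TSS of a lncRNA, ENSG00000258976, 4.41 kb upstream of the LTBP2 TSS. Pol II was also present at the other end of LTBP2, where a 2350-bp peak crossed the annotated gene end.

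The type I receptor gene TGFBR1, at chr9:101866320-101916474, had marks on both sides of the TSS and none on it. H3K4me3 peaks of 850 and 700 bp left a gap of 800 bp, from 244 bp before the TSS to 555 bp after it. H3K27ac peaks of 800 and 700 bp left 850 bp, and a 300-bp Pol II peak ended at the upstream edge of the H3K4me3 gap. All 3 lists were narrow here, since only 6.42%, 9.16% and 5.67% of marked windows had a narrower widest peak. H3K4me1 peaks of 500 and 1000 bp lay further out on both sides, the second overlapping the downstream H3K4me3 and H3K27ac peaks by its first 100 bp. The type II receptor gene TGFBR2, at chr3:30648093-30735634, had a 4400-bp H3K4me3 peak and a 1200-bp Pol II peak across the TSS. Its H3K27ac came as 750 bp upstream and 5800 bp downstream, with 500 bp over the TSS in between. The downstream peak was wider than the widest in 95.4% of marked windows. The receptors that act as a pair thus had different promoter widths.

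The genes of the receptor-regulated SMADs also differed. SMAD3, at chr15:67356101-67487511, had H3K4me3 over 5900 bp, H3K27ac over 5850 bp and Pol II over 4300 bp, all across the TSS. These were wider than in 97.6%, 95.6% and 88.7% of marked windows. A CTCF peak of 100 bp lay 390 bp before the TSS. The TSS of a lncRNA on the other strand, ENSG00000259347, lay 0.334 kb upstream, under the same H3K4me3, H3K27ac and Pol II peaks. SMAD2, at chr18:45335328-45457517, had H3K4me3 peaks of 900 and 1300 bp, H3K27ac peaks of 650 and 850 bp and Pol II peaks of 250 and 200 bp, each pair on either side of an uncovered TSS. The H3K4me3 gap was 950 bp and the H3K27ac gap 1050 bp. Only 3.56% of marked windows had a widest Pol II peak narrower than its 250 bp. SMAD4, the shared partner of the receptor-regulated SMADs, at chr18:48554898-48611415, had H3K4me3 and H3K27ac over the same 1150 bp across the TSS, and further peaks of 800 and 400 bp after a gap of 500 bp. Its 550-bp Pol II peak was wider than in 15.8% of marked windows. The TSS of a lncRNA, ENSG00000289868, lay 0.163 kb upstream and under the same peaks.

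SMAD7 encodes the inhibitory SMAD that binds the type I receptor and is itself a known target of the pathway. It lies at chr18:46446223-46477335 on the minus strand. H3K4me3 peaks of 3250 and 1000 bp and H3K27ac peaks of 2600 and 900 bp were found, the wider of each across the TSS. No other list had a peak in the window, a combination seen in 0.628% of all windows. A 150-bp Pol II peak lay at 1.67 to 1.82 kb upstream, just outside the window and under the upstream H3K4me3 peak. A 5 kb window therefore counts it, and the absence of Pol II at SMAD7 rests on the width of the window.

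The gaps in the marks of TGFBR1, TGFBR2, SMAD2, SMAD4 and SMAD7 had a high content of G and C. The H3K4me3 gap held 81.1% G and C at TGFBR1, 78.9% at SMAD2, 80.2% at SMAD4 and 75.2% at SMAD7. The H3K27ac gap of TGFBR2 held 66%. In each of the 9 pairs, both flanking peaks had a lower content, from 39.1% at TGFBR2 to 63.3% at SMAD7. At TGFBR1, SMAD2, SMAD4 and SMAD7 both lists had nearly the same gap, so their pairs are not separate cases. Peak calling joined gaps under 500 bp in both lists, so shorter gaps could not appear. Over all genes, H3K4me3 stood on both sides of an uncovered TSS in 8.62% of marked windows, against 2 of the 8 marked windows here, and H3K27ac in 12%, against 3 of 8. The 1 kb around the TSS held a median of 74.1% G and C in windows with split H3K4me3 and 63.1% in those without. Among the members, this 1 kb held 77.2% at TGFBR1 and 78.2% at SMAD2, both split, but also 76% at SMAD3 and 72.2% at TGFB1, which were not split, and 62.5% at TGFBR2 with its split H3K27ac. The part of base composition in the gaps was not tested.

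**Figure D2:**
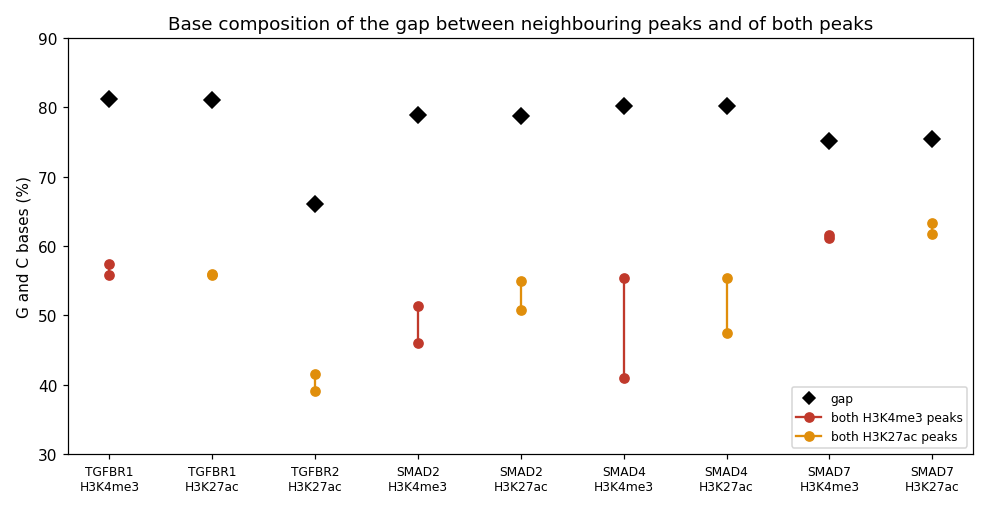
Content of G and C, in percent, of each gap between neighbouring H3K4me3 or H3K27ac peaks at the promoters of 5 genes (black diamonds) and of the peaks on both sides of it (coloured circles joined by a line). The gaps, from 66% to 81.1%, lie above both of their peaks in every pair.

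Enhancers were read over each gene body and 100 kb either side, here called the locus. An H3K4me1 region outside all promoter windows was a candidate active enhancer (cAE) where it shared a base with H3K27ac and a candidate inactive enhancer (cIE) where it did not. The 10 loci held 53 cAEs, 94 cIEs, 41 p300/CBP peaks and 59 CTCF peaks. TGFB1, TGFB2, LTBP2, SMAD3 and SMAD7 had 8 cAEs each and TGFBR2 had 9, whereas TGFBR1 and SMAD2 had 2 and INHBA and SMAD4 had none. The median over all genes was 3. Where H3K27ac had to cover at least 50% of the region, 31 of the 53 cAEs were left, with 6 at LTBP2 and TGFBR2, 5 at TGFB1, TGFB2 and SMAD3, 2 at SMAD7 and 1 at TGFBR1 and SMAD2. At least 1 cAE was found for 8 of the 10 genes, beside 80.6% of all genes, and at least 1 p300/CBP peak for 9, beside 37.5%. Loci differ in length with the gene, and within 100 kb of the TSS alone the median number of cAEs was 4.5 over the 10 genes and 2 over all genes, and that of p300/CBP peaks 1 and 0. The number of cAEs with the member as the nearest canonical TSS was 39 of 53, and that of p300/CBP peaks was 36 of 41.

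**Figure D3:**
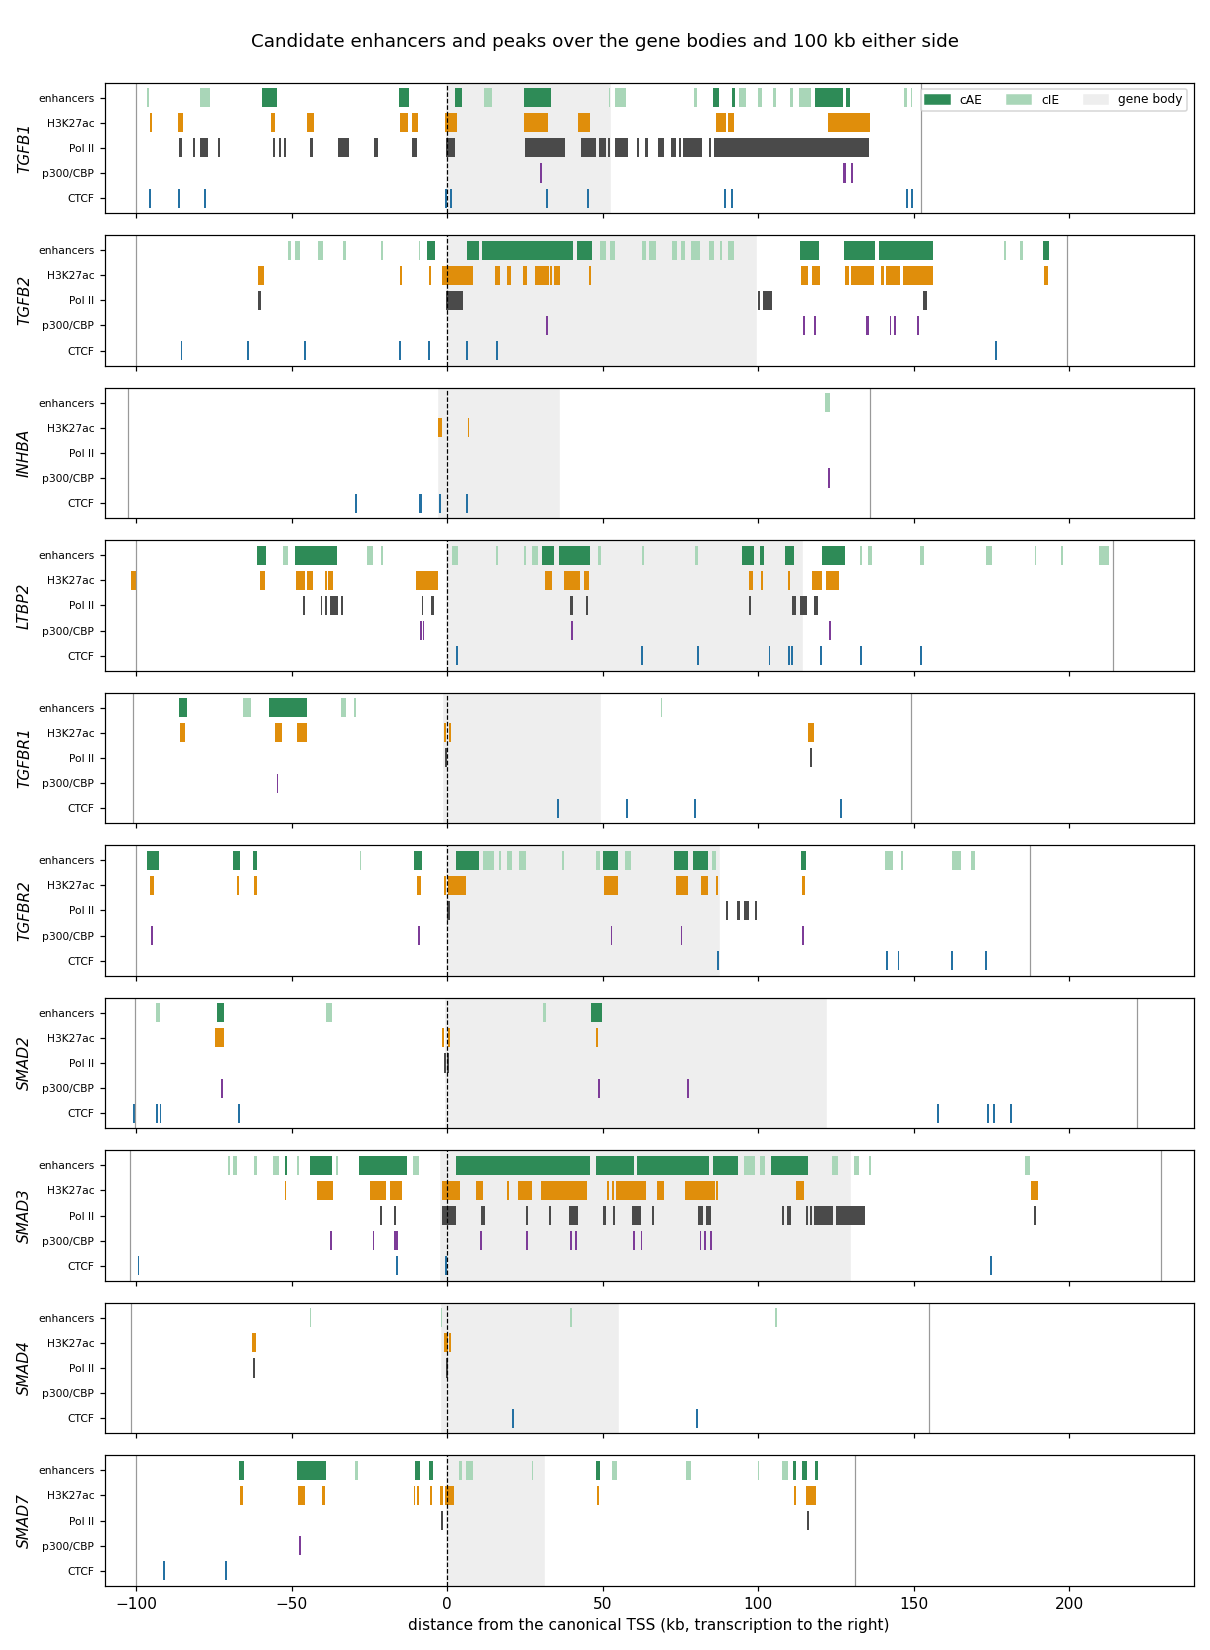
Candidate active (cAE) and inactive (cIE) enhancers and the peaks of H3K27ac, Pol II, p300/CBP and CTCF over each gene body (grey) and 100 kb either side (grey lines), against distance from the canonical TSS in kb; the narrowest features are drawn at a minimum width. SMAD3 and TGFB2 show long cAEs in intron 1, and INHBA and SMAD4 show no cAE.

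SMAD3 stood at the upper end of all genes. Its cAEs covered 122.2 kb, or 36.9% of the locus, more than for 99.9% of genes. The cAE that began 2.96 kb into intron 1 was 42.85 kb wide and ranked 17 among all 24323 cAEs by width, with 53.7% of it under H3K27ac. Further cAEs of 12.15 and 23.25 kb followed in the same intron, and 1 of 15.65 kb lay upstream. The locus held 13 p300/CBP peaks, of which 9 were in intron 1, and 12 touched a cAE. One of them, 350 bp wide, covered the TSS of transcript SMAD3-204, 60.1 kb after the canonical TSS, together with H3K4me3, H3K27ac and Pol II. The TSS of SMAD3-210, 33.0 kb after it, was covered by all 3 histone marks and Pol II. The TSS of a lncRNA on the other strand, ENSG00000259202, lay in the 23.25 kb cAE, 81.3 kb after the canonical TSS. Its 3 kb window held H3K4me3, H3K27ac, H3K4me1, Pol II and p300/CBP peaks. Enhancers and promoters of shorter SMAD3 transcripts or of this lncRNA cannot be told apart in intron 1 from these lists. The cAEs excluded promoter windows of canonical TSSs only. The TSS of SMAD3-210 lay inside the 42.85 kb cAE and that of SMAD3-202 inside the 23.25 kb cAE. The window of SMAD3-204 reached the 12.15 and 23.25 kb cAEs. With the windows of all basic transcripts excluded, these cAEs would not count, and the total over all loci fell from 53 to 44. The width rank and the 36.9% thus rest on the canonical TSSs, and neither was recomputed. H3K4me1 covered 80.5% of the gene body, more than for 99.0% of genes, H3K27ac 40.3% and Pol II 22.8%.

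TGFB2 followed, with cAEs over 75.85 kb or 25.3% of the locus, more than for 99.4% of genes. A cAE of 29.25 kb in intron 1 ranked 48 in width, but H3K27ac covered only 37.9% of it. Past the 3′ end of the gene, cAEs of 6.15, 10.05 and 17.4 kb lay between 113.6 and 156.1 kb from the TSS, and they held 8 of the 9 p300/CBP peaks of the locus. The TSS of LINC02869, a lncRNA, lay in the first of these cAEs, 113.9 kb from that of TGFB2. All 8 cAEs and all 9 p300/CBP peaks had TGFB2 as the nearest protein-coding TSS.

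The receptor genes again differed from one another. TGFBR2 had 9 cAEs over 33.0 kb, of which 4 touched the gene and 5 held a p300/CBP peak, at 95.0 and 9.29 kb upstream, in introns 3 and 5 and 114.5 kb downstream of the TSS. TGFBR1 had no cAE in the gene, a cAE of 12.2 kb at 45.0 to 57.2 kb upstream with its only p300/CBP peak and 45.1% of it under H3K27ac, and a cAE of 2.55 kb that lay nearer to COL15A1.

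SMAD7 had 8 cAEs, all nearest to it and all outside the gene body. The widest, of 9.45 kb at 38.8 to 48.3 kb upstream, held the only p300/CBP peak and lay under H3K27ac over 35.4% of its length, and the others were 1.7 kb or less. SMAD2 had 2 cAEs, 1 in intron 2 and 1 at 71.6 to 74.1 kb upstream, each with a p300/CBP peak of 100 bp. H3K27ac covered 8.57% of the first and 94.1% of the second. The remaining p300/CBP peak, in intron 6, touched no other list and lay at the processed pseudogene MTCO2P2, a nuclear copy of a mitochondrial gene. A pseudogene resembles its parent gene in sequence, and this peak is given as uncertain. SMAD4 had 4 cIEs over 1.9 kb in all and no p300/CBP peak.

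LTBP2 had a cAE of 9.95 kb in intron 3 with a 400-bp p300/CBP peak, H3K4me3 and Pol II, and a cAE of 13.75 kb at 35.3 to 49.0 kb upstream with 4 Pol II peaks. Of its 8 cAEs, 3 had LTBP2 as the nearest TSS, 3 had ISCA2 and 1 had NPC2, both just past its 3′ end, and 1 had AREL1, on the upstream side. TGFB1 lay in a gene-dense stretch, and only 1 of its 8 cAEs, of 2.25 kb in intron 1, was nearest to it. Of the 4 p300/CBP peaks of its locus, 3 were nearest to AXL, a receptor tyrosine kinase gene, and 1 to CCDC97. The annotated span of TGFB1 also runs past its canonical transcript and over the TSS of CCDC97, 43.75 kb from its own. Most of the 23036 bp of the gene body under Pol II therefore lay past the canonical end, among them a peak of 13000 bp. Only the promoter peak lay in the canonical transcript. INHBA had a single cIE of 1.4 kb, starting 121.6 kb downstream of its TSS, with a p300/CBP peak of 250 bp inside.

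**Figure D4:**
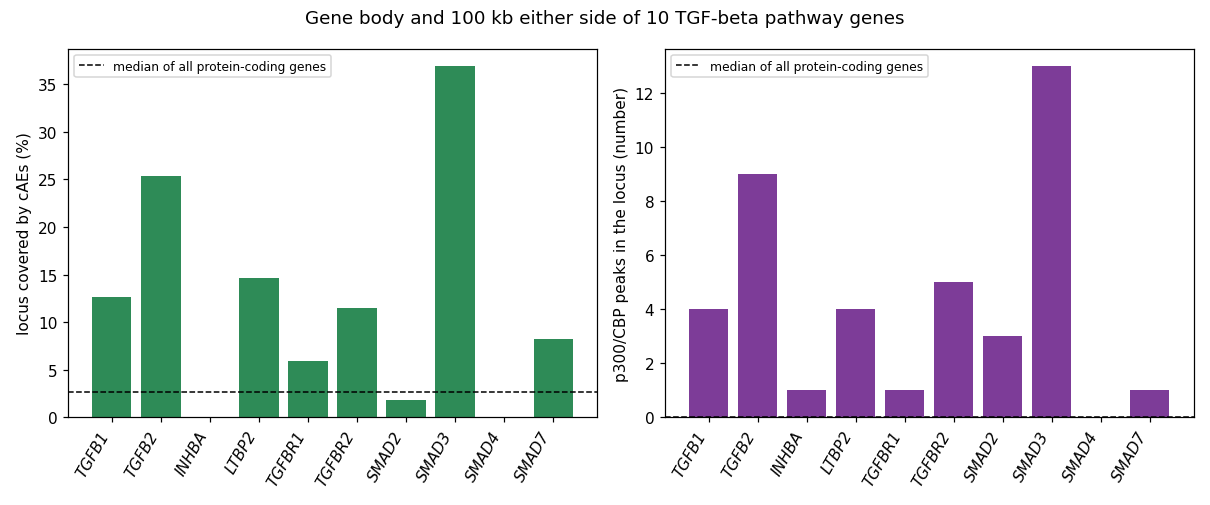
Share of each locus covered by cAEs, in percent (left), and number of p300/CBP peaks in it (right), with the median over all protein-coding genes as a dashed line. SMAD3 has the highest bars, 36.9% and 13 peaks, followed by TGFB2 with 25.3% and 9, and SMAD4 has none.

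Of the 53 cAEs, 21 held a p300/CBP peak, 16 Pol II, 5 CTCF and 21 H3K4me3. Over all cAEs the shares were 20.6%, 21%, 16.4% and 34.2%. The share with p300/CBP was thus above that over all cAEs. The median width was 3650 bp here and 2550 bp over all cAEs, and its part in this difference was not tested. Of the 41 p300/CBP peaks, 33 touched a cAE. Over the whole list it was 7004 of 13984. The paper reports fewer p300/CBP peaks than this list holds, a larger share of them in cAEs, and more cAEs than were found here. The other 8 comprised 3 near AXL, 2 in the wide H3K4me1 region upstream of LTBP2, 1 in the cIE of INHBA, 1 in intron 6 of SMAD2 and 1 of 750 bp between neighbouring H3K4me1 regions in intron 1 of SMAD3. The 2 peaks upstream of LTBP2 lay under H3K27ac, in a region that was no cAE only because it touched the promoter window.

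The letters TGANTCA were found in the 200 bp around the centre of 24 of the 41 p300/CBP peaks, or 58.5%. The median width over all p300/CBP peaks was 150 bp, so these 200 bp often ran past the peak. All counts of letters for p300/CBP below use the same 200 bp. The share was 33.1% over all p300/CBP peaks and 49.9% over those in cAEs, which is the closer background. It is not over a like set, since only 33 of the 41 peaks touched a cAE. The same limit holds for the other shares in cAEs given below. By gene, the letters were found in all 4 peaks at TGFB1, all 4 at LTBP2, 6 of 9 at TGFB2, 6 of 13 at SMAD3, 3 of 5 at TGFBR2 and the only peak at SMAD7. The 3 peaks at SMAD2 and the single peaks at TGFBR1 and INHBA had none. Some of the matches at LTBP2, TGFB2 and TGFBR2 lay outside the peak itself, beside peaks of 100 bp. In the sequences printed above, the SMAD3 peak holds the letters in 2 places, and in the LTBP2 peak they overlap by 2 bases with CATTCC. This is the reverse complement of a TEAD recognition sequence, GGAATG, which was found on either strand in 14 peaks (34.1%, beside 26.9% in cAEs), and TGTGGT, a RUNX sequence, in 10 (24.4%, beside 25%). The SMAD box CAGACA was found in 6 (14.6%, beside 13.3%), among them the LTBP2 and TGFBR2 peaks printed above. The SMAD palindrome GTCTAGAC was found in none, as in nearly all p300/CBP peaks, of which 0.0715% held it. For CTCF, the 300 bp around the centre of each peak were read. One form of the CTCF core, a strict string that few peaks match, was found at 5 of the 59 CTCF peaks (8.47%, beside 9.35% of all). A longer form was found at none (0.096% of all). A match to letters is a description of the sequence and does not show which factor bound.

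CTCF stood at very different distances from these genes. The nearest upstream peak lay under 0.4 kb from the TSS at TGFB1 and SMAD3, 2.06 kb at INHBA and 5.73 kb at TGFB2. It lay 66.9 kb away at SMAD2, 71.0 kb at SMAD7, 104.3 kb at TGFBR1, 150.9 kb at LTBP2, 210.0 kb at SMAD4 and 286.6 kb at TGFBR2. Downstream of the TSS of TGFBR2, the first CTCF peak lay in the last exon, 86.9 kb away, and 8 of its 9 cAEs lay between these, from 96.3 kb upstream to 84.0 kb downstream, with no CTCF peak between them and the TSS. At SMAD3 the first downstream peak lay 174.7 kb from the TSS, past the end of the gene, and at SMAD7 173.5 kb.

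Pol II was also found beyond the 3′ ends of some of these genes. A Pol II peak lay within 10 kb past the annotated gene end of 5 genes, TGFB1, TGFB2, LTBP2, TGFBR2 and SMAD3, beside 40.4% of all genes. This window was chosen after the peaks had been seen. Other TSSs lie nearby. At LTBP2, 1 of the 2 peaks lay over the TSSs of ISCA2 and NPC2. At TGFBR2, the TSS of the lncRNA ENSG00000261468, 91.1 kb from that of TGFBR2, lay among the peaks, and at TGFB1 the peaks lay downstream of the HNRNPUL1 TSS on the other strand. These sources of Pol II cannot be told apart by position. At SMAD3 a peak of 9600 bp crossed the gene end and reached 4.94 kb past it. At TGFB2 the peaks spanned 0.94 to 5.09 kb and at TGFBR2 2.37 to 9.42 kb past the end, whereas the rest of both gene bodies had no Pol II peak after the promoter. Over the gene bodies, the median cover of the 10 genes was 18.5% for H3K4me1, 8.32% for H3K27ac, 4.80% for H3K4me3, 1.09% for Pol II, 0.581% for CTCF and 0.225% for p300/CBP. The medians over all genes were 6.54%, 2.81%, 2.19%, 0.752%, 0.0646% and 0. The members differed more among themselves than these medians show, with H3K4me1 cover from 0 at INHBA to 80.5% at SMAD3.

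Of 78 other genes of the pathway, 60 had H3K4me3 at the promoter (76.9%, beside 62.7% of all windows) and 61 H3K27ac (78.2%, beside 61.4%). H3K4me1 was found in 49 (62.8%, beside 59.3%) and Pol II in 49 (62.8%, beside 58.4%), both near the share of all windows. CTCF was found in 20 (25.6%, beside 17.6%) and p300/CBP in 1 (1.28%, beside 0.769%). There were 11 with no peak of any list, a state of 28% of all windows. All 15 SMAD co-factors and modifiers and all 4 further SMAD genes had H3K4me3 and H3K27ac, as did all 4 SMAD members. SMAD1 and SMAD9 shared with SMAD7 the lack of a Pol II peak. Among the 13 further ligands, 8 had H3K4me3. NODAL, MSTN and BMP7 had no peak of any list in the window of the canonical TSS, like INHBA, which was marked at another TSS. Of the 12 further receptors and co-receptors, 9 had H3K4me3, and ACVRL1 and AMHR2 had none of the 6 lists. In the latency and activation group of 12 genes, FBN2, ITGB6 and LRRC32 had none. Among 8 secreted antagonists, GREM1 and DCN had none. Of 14 target genes, 11 had H3K4me3 and 12 H3K27ac, and CDKN2B had none. CCN2, a matrix-associated target gene, was the only one of the 78 with p300/CBP in its window.

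The same presence or absence in all 6 lists served as the measure of likeness between promoters. TGFB2, TGFBR1 and TGFBR2 had H3K4me3, H3K27ac, H3K4me1 and Pol II, as did 36.2% of windows and 22 of the 78 genes, among them ACVR1B, ACVR2B, SKI, SMURF1, ID2 and ID3. TGFB1 and SMAD3 had CTCF in addition, as did 11.6% of windows and 12 of the 78 genes, among them TGFB3, SKIL, ID1 and BAMBI. SMAD2 and SMAD4 had H3K4me3, H3K27ac and Pol II without H3K4me1, as did 6.07% of windows and 11 genes, among them ACVR2A, BMPR2, SMAD6 and SMURF2. LTBP2 was matched by CHRD, ENG, LEFTY1 and LEFTY2.

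**Figure D5:**
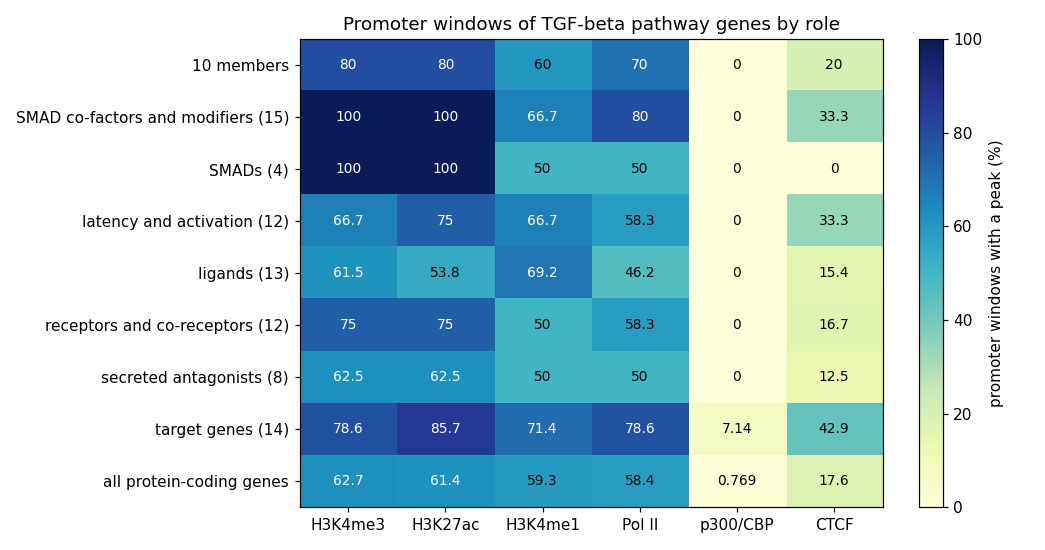
Percent of promoter windows with a peak of each of the 6 lists (columns) for the 10 genes studied, the other pathway genes by role with their number in brackets, and all 19894 protein-coding genes. All SMAD genes and SMAD co-factors have H3K4me3 and H3K27ac, and p300/CBP is at or near 0 in every row.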

How the data were processed

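ChIP-seq lists for H3K4me3, H3K27ac, H3K4me1, p300/CBP, Pol II and CTCF in MDA-MB-231 cells were analysed. The authors aligned reads to hg19 (with BWA-backtrack in the paper, with Bowtie2 in the submitters' processing notes), put uniquely mapped reads in 50-bp bins, joined both replicates and kept runs of bins over a threshold as peaks. The deposited values are positions only, other than any count, signal or score. Thresholds were 30 for H3K4me3 and H3K4me1, 50 for H3K27ac, Pol II and CTCF, and 60 for p300/CBP, and bins were joined across 50 to 1000 bp. By the names of the lists, background was subtracted for p300/CBP and the histone marks only, and CTCF alone was not scaled, so covers of different lists are not on 1 scale. Depth per sample is unknown, and the 2 input libraries were not analysed here.

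Starts and ends were 1 past a multiple of 50, and ends were read as the first base after a peak. Peak ends were checked against the chromosome lengths of GRCh37. Genes, canonical TSSs and exons came from GENCODE release 44 (GRCh37 mapping) where the paper used RefSeq, and sequences from GRCh37. Peaks were compared by position with Python 3.11.15, NumPy 2.4.6 and pysam 0.24.0, and figures were drawn with matplotlib 3.10.9. A shared base counted as overlap. No statistical test was made, since no list keeps its replicates apart. On simulated data, the functions that compare intervals were tested in 2000 comparisons and gave 0 wrong answers. No column was left unmapped (0).

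The members, the 78 other pathway genes and the motifs were chosen with earlier results of these data known. All 10 members are named. Other pathway genes are named where at most 5 of a role share a state or where all 6 lists match those of a member, and neighbouring genes where a described peak lies by them. Sequences are from p300/CBP peaks of at most 300 bp that held TGANTCA and touched no annotated exon, and not all of these are printed. Alternatives changed the window, the TSSs, the overlap, the flank, the width of peaks kept, the joining of peaks, the definition of cAEs and the assignment to the nearest TSS.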

Additional observations from a re-analysis of the deposited data

How the results depend on the processing

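No paired analysis was possible because each list joins its replicates, which also means that none could be left out. Without a value per peak a stricter threshold had no meaning, and only the wider peaks of each list, from its median width upwards (wide peaks), were kept instead. Of 66 alternatives to 16 results, 26 moved a count by over 1.5 times or a median cover by any amount, since covers have no error here, and for those the cause was not tested. The other 40 stayed within these limits, which still took the p300/CBP peaks from 41 to 28 and the cAEs from 53 to 36 with wide peaks. The count of members with H3K27ac at the promoter, 8, became 5 when the peak had to cover the TSS base and 5 with wide peaks only. The count with H3K4me1, 6, became 1 in a 1 kb window, 3 in a 2 kb window, 0 over the TSS base and 2 with wide peaks. Pol II went from 7 to 4 with wide peaks, CTCF from 2 to 0 over the TSS base and 1 with wide peaks, and p300/CBP from 0 to 1 with any TSS of a basic transcript, through SMAD3. The 53 cAEs became 31 when H3K27ac had to cover at least 50% of the region, and the 94 cIEs became 56 when the member's TSS had to be the nearest. The 59 CTCF peaks became 35 within 50 kb, 39 with wide peaks and 33 with the member's TSS the nearest. Without the first 1.5 kb after the TSS, the median gene-body cover was 3.93% for H3K4me3, 7.03% for H3K27ac, 19.0% for H3K4me1, 0.610% for Pol II, 0.230% for p300/CBP and 0.590% for CTCF. With wide peaks it was 3.33% for H3K4me3, 7.86% for H3K27ac, 14.5% for H3K4me1, 0.604% for Pol II and 0.143% for p300/CBP. Sequencing depth is unknown, so how far a missing peak reflects depth was not tested.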
